A study of Homo sapiens with 2 samples.

Results

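The genes described here are 35 members of the cell death machinery: the BCL2 family, caspases with their activators, inhibitor of apoptosis proteins (IAPs), and death receptors with their adaptors. They were taken by name from a table of 37364 genes, and each of the 35 names was found there. The table holds 2 RNA libraries of D407, an established human cell line described in the labels as retinal pigment epithelium (RPE). One library came from D407 cells treated with clusterin, and one from control D407 cells. Clusterin is a secreted chaperone glycoprotein, and its cytosolic form has been reported to bind BAX. Both cultures were kept in medium with fetal bovine serum, and neither dose nor duration of the clusterin treatment is stated in the labels. With 1 library per group, no difference below has a replicate check, and every interval covers counting error only.

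Apoptosis runs along a pair of routes that meet at the caspases. In the mitochondrial route, BH3-only proteins sense damage and either bind the pro-survival members of the BCL2 family or activate BAX and BAK1, which open the outer mitochondrial membrane and release cytochrome c and DIABLO. Cytochrome c joins APAF1 to form the apoptosome, which activates caspase-9, while DIABLO displaces IAPs from caspases. In the receptor route, ligand-bound FAS or TRAIL receptors recruit FADD and caspase-8, and CFLAR limits this step. RPE cells are long-lived and do not normally divide in the eye, and their death is a feature of macular degeneration, so the balance of these proteins is much studied in RPE.

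The level of each gene was given as RPKM, reads scaled to transcript length and library total. Reads recovered from the deposited values gave totals of 33177093 reads for clusterin and 38236991 reads for control, and reads were recovered for 34 of the 35 members. The members carried 53 to 19861 reads over both libraries, with a median of 1218. Of the members, 30 had a mean of at least 1 RPKM and are called measured here (85.7%), against 35.4% of all listed genes. BCL2, HRK, BCL2L11 and CASP10 lay above 0 but under 1 RPKM, and BCL2A1 was listed at 0 in both libraries. The RPKM ratio of clusterin over control had a median of 0.951 over 13632 genes with at least 100 reads. This median is called the library offset below, since a gene at that ratio differs no more than the middle gene of the table. At their loci 13 members overlap another gene listed by symbol, among them BAD, BBC3, CASP6 and FAS. This overlap was judged on whole gene spans, introns included. The strand setting of the counting is not stated, so where the transcripts of such a pair overlap, their reads may be shared. The cell line's label was checked against markers: of 9 RPE and pigment genes, 6 were listed at 0 in both libraries, RPE65 and RLBP1 among them, and only MITF and BEST1 were measured. The keratins KRT7, KRT8, KRT18 and KRT19 summed to 1003 RPKM with clusterin and 984 in control. The matrix genes DCN, LUM and COL1A1 summed to 71.5 and 73.2 RPKM, while the leukocyte genes PTPRC and CD3E were listed at 0. In bulk RNA, fewer cells of a type and less RNA per cell cannot be told apart.

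**Figure D1:**
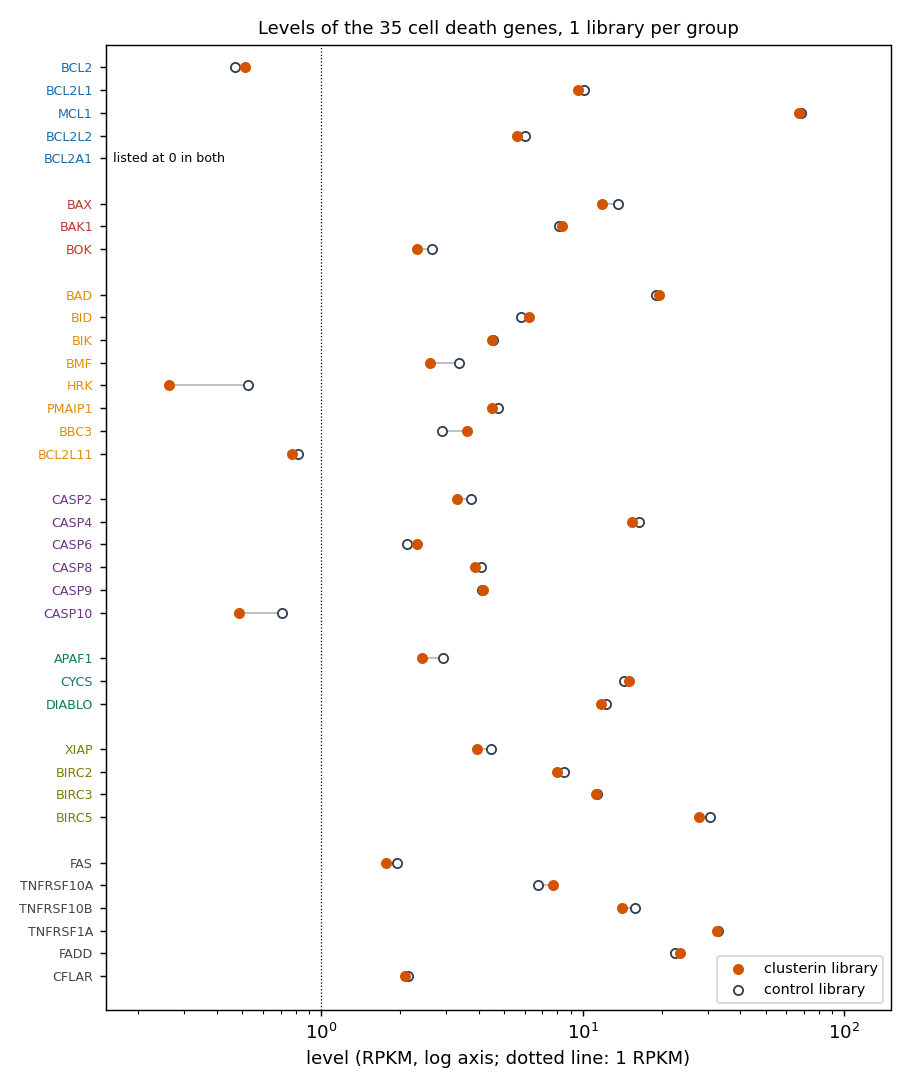
Level of each member in the clusterin library (filled) and the control library (open), on a log axis of RPKM, with genes grouped and coloured by role. MCL1 is the highest at 67.2 and 68.5 RPKM, BCL2A1 is listed at 0, and the widest gaps are those of HRK and CASP10, which lie under 1 RPKM.

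None of the 30 measured members differed by 2-fold between the libraries, on the scale log2((clusterin RPKM + 1)/(control RPKM + 1)), where 0.219% of 13244 measured genes did. The members ranged from -0.28 for BMF to 0.23 for BBC3 on this scale, which understates the change of low genes. The pseudocount also makes the rule strict: it caught 4% of simulated 2-fold genes and 88% of simulated 4-fold genes. Without a pseudocount, the RPKM ratios of the 30 ran from 0.775 for BMF to 1.24 for BBC3. Their median was -0.06, equal at this rounding to the -0.06 of all measured genes. At a mean of at least 5 RPKM, the median was -0.03 for 17 members and -0.06 for all genes. Of the 30, 21 lay below 0, or 70.0%, against 70.2% of all measured genes, and 15 lay below the median of all genes. With the control rescaled so that the median of all genes is 0, 15 of the 30 lay below 0, and after quantile normalization 16 did. A difference smaller than 0.1 was found for 20 members, or 66.7%, against 54.6% of all measured genes. The counts below 0 for the members thus lay close to those of the table as a whole.

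**Figure D2:**
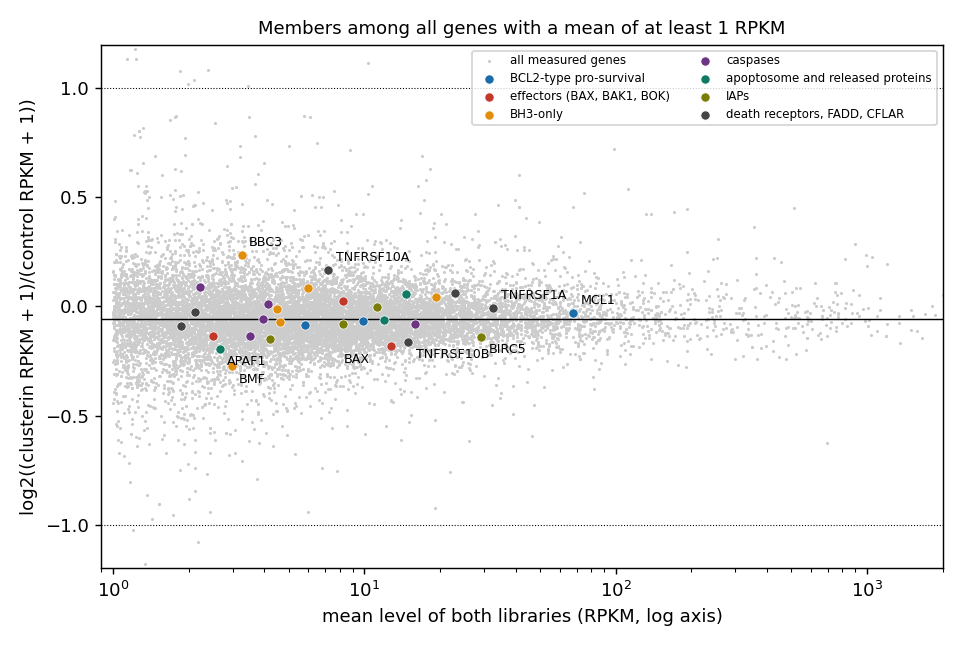
Log2 difference (clusterin minus control, pseudocount of 1 RPKM) against mean RPKM on a log axis for every gene measured at 1 RPKM or more on average (grey) and the 30 measured members (coloured by role). The solid line is the median of all genes, -0.06, and the dotted lines mark 2-fold; the members lie within 0.3 of 0, and 31 other genes fall outside the axes.

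The BH3-only genes BBC3 and BMF held the highest and lowest log2 differences among the 30 measured members, and APAF1, the apoptosome scaffold, the second lowest. Their promoters are shown for that reason, as the 250 bases before the RefSeq transcription start on GRCh38.p14, 5′ to 3′ on the strand of the gene. Capitals mark a GC box (GGGCGG) or a CCAAT box (CCAAT), on either strand, so that ATTGG is a CCAAT box on the other strand. Of the members, 28 matched the RefSeq promoter table by symbol, and MCL1, BCL2L2, BIK, CASP10, BIRC5, TNFRSF10A and TNFRSF10B did not.
BBC3 promoter (chr19:47232668-47232917, minus strand): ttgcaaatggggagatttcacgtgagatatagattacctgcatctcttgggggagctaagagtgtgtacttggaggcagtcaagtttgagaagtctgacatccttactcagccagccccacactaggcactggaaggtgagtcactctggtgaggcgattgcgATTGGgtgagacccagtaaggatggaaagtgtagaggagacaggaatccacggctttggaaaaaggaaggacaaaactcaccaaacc
BMF promoter (chr15:40108880-40109129, minus strand): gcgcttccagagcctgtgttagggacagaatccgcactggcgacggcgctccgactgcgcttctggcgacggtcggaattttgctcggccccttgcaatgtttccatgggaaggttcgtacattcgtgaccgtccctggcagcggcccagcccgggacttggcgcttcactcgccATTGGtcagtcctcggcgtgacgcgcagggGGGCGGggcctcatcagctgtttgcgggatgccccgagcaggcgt
APAF1 promoter (chr12:98645040-98645289, plus strand): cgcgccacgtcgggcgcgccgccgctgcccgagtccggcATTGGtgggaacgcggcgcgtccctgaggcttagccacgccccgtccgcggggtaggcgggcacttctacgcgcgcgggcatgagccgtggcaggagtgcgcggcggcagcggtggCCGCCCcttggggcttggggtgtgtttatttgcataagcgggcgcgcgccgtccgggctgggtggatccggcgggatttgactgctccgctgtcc

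The RefSeq start of BBC3 lies 329 bases inside the deposited gene, so its window falls wholly within the deposited span of BBC3. The starts of BMF and APAF1 lie 5 and 62 bases inside theirs. These 3 windows differed in base composition, with 49.2% G or C for BBC3, 65.2% for BMF and 73.6% for APAF1, against a median of 64.4% over the promoter windows of members and 58.0% over all RefSeq promoters. Each held 1 CCAAT box, and BMF and APAF1 also held 1 GC box each. A GC box stood in 33 of the 50 promoter windows of members, and in 42.6% of all 35116 windows. A CCAAT box stood in 17 of the 50, and in 32.0% of all windows. The FOXO site TGTTTAC was found in 1 of the 50, that of BCL2L11, or 2.0%, and in 2.98% of all windows. The p53 half-site was found in 4 of the 50, those of BAK1, CASP8, CASP9 and FAS, or 8.0%, and in 5.57% of all windows. These matches describe letters in 250 bases and say nothing of binding.

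Among the pro-survival genes, whose proteins hold BAX and BAK1 in check, MCL1 was by far the highest. It stood at 67.2 RPKM with clusterin and 68.5 RPKM in control, from 9130 and 10731 reads, a level above that of 96.9% of all genes above 0. MCL1, a short-lived protein needed from moment to moment, made up 81.0% of the summed pro-survival level with clusterin and 80.5% in control. Its RPKM ratio was 0.981 with a 95% counting interval of 0.953 to 1.01, just above the library offset of 0.951. After quantile normalization the log2 difference of MCL1 was -0.0073, against a median of -0.0031 for all measured genes. Its place above the middle gene thus depended on the scaling. BCL2L1, which encodes BCL-XL, stood at 9.62 RPKM with clusterin and 10.1 RPKM in control, a ratio of 0.950 (0.865 to 1.04), close to the offset. BCL2L2, which encodes BCL-W, stood at 5.60 RPKM with clusterin and 5.998 RPKM in control. Its reads may be shared with the read-through gene BCL2L2-PABPN1, which overlaps it on the same strand and stood at 17.6 and 20.3 RPKM, so the level of BCL2L2 is uncertain. BCL2 itself, the founding member, was low, at 0.510 RPKM with clusterin and 0.470 RPKM in control from 112 and 119 reads. Its ratio of 1.08 had an interval of 0.830 to 1.42, too wide at this depth to place it above or below the offset. BCL2A1, an NF-kB target best known in blood cells, was listed at 0.

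The effectors that form the mitochondrial pore were measured in both libraries, and BAX was the highest. BAX stood at 11.9 RPKM with clusterin and 13.6 RPKM in control, from 495 and 654 reads, a log2 difference of -0.18. Its ratio of 0.872 (0.775 to 0.982) lay below 1, but the interval held the offset, and 13.5% of measured genes had a lower difference. BAK1, which overlaps in function with BAX, stood at 8.30 RPKM with clusterin and 8.15 RPKM in control, a ratio of 1.02 (0.912 to 1.14). BOK, a less studied effector, stood at 2.33 RPKM with clusterin and 2.66 RPKM in control, a ratio of 0.878 (0.729 to 1.06). The counting intervals of all 3 effectors held the offset, so none was set apart from the middle gene at this depth.

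The summed pro-survival level was 3.68 times the summed effector level with clusterin and 3.48 times in control, 1.06 as clusterin over control. After quantile normalization that value was 1.03. Pooled reads gave the effector sum alone a counting interval from 0.929 to 1.08 times its ratio, so 1.06 was not set apart from 1. Without MCL1, the summed pro-survival level was 0.699 times the effector level with clusterin and 0.680 times in control. MCL1 therefore carried most of the pro-survival transcript, and the other 4 genes together were listed below the effectors in both libraries. That sum includes BCL2L2, whose level is uncertain because of its read-through neighbour, so this order is uncertain too. These are transcript levels, and the proteins were not measured.

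**Figure D3:**
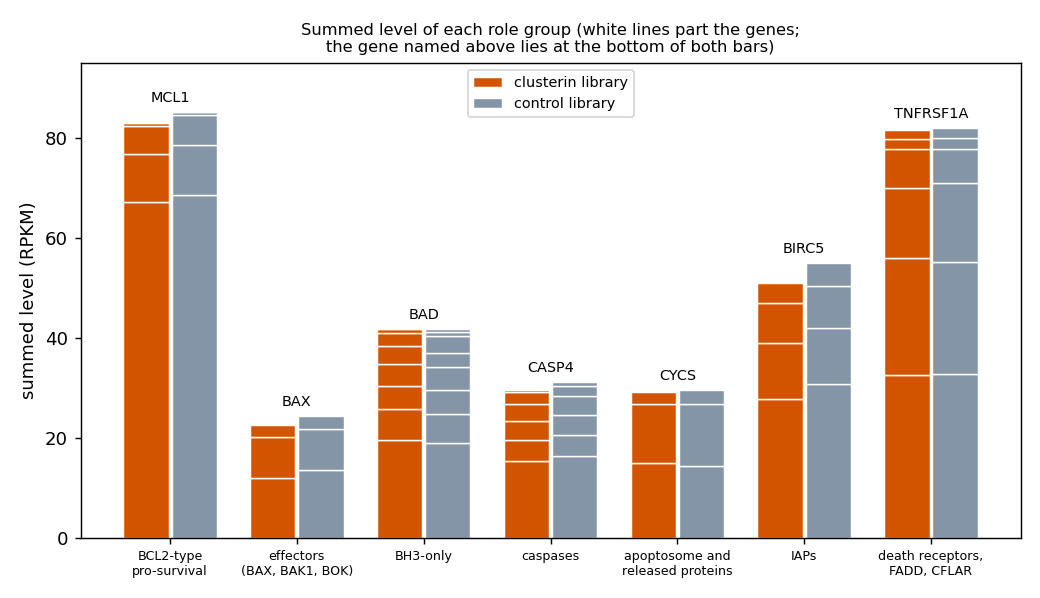
Summed RPKM of each role group in the clusterin library (left bar of each pair) and the control library (right bar), with white lines between genes and the highest gene of each group named above its pair. The pro-survival sum, mostly MCL1, is 82.9 and 85.1 RPKM, and the effector sum is 22.5 and 24.4 RPKM.

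The BH3-only genes, whose proteins start the mitochondrial route, lay on both sides of the library offset. BBC3, which encodes PUMA, a p53 target that binds every pro-survival member, stood at 3.60 RPKM with clusterin and 2.91 RPKM in control, from 250 and 233 reads. Its ratio of 1.24 (1.03 to 1.48) lay above both 1 and the offset, and its log2 difference was higher than in 97.2% of measured genes. BMF, which senses loss of attachment to the matrix, stood at 2.60 RPKM with clusterin and 3.36 RPKM in control, from 412 and 613 reads. Its ratio of 0.775 (0.682 to 0.879) lay below the offset, and 4.86% of measured genes had a lower difference. In the authors' deposited table, q was 0.00152 for BMF and 0.11 for BBC3.

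The other BH3-only genes lay closer to the offset, apart from HRK. BAD, which is held inactive by survival kinases, was the highest at 19.6 RPKM with clusterin and 19.0 RPKM in control. BID, which caspase-8 cleaves to link the receptor route to mitochondria, stood at 6.21 RPKM with clusterin and 5.79 RPKM in control. Its counting interval, 0.953 to 1.21, lay just above the offset. BIK, a BH3-only protein of the endoplasmic reticulum, stood at 4.49 RPKM with clusterin and 4.53 RPKM in control. PMAIP1, which encodes NOXA and neutralises MCL1, stood at 4.48 RPKM with clusterin and 4.76 RPKM in control. The intervals of BAD, BIK and PMAIP1 held the offset. BCL2L11, which encodes BIM, was under 1 RPKM, at 0.776 with clusterin and 0.813 in control. HRK, best known from neurons, had only 16 reads with clusterin and 37 in control, at 0.262 and 0.526 RPKM. Its ratio of 0.498 had an interval of 0.259 to 0.918, so HRK lay below the offset but its size was poorly fixed. The summed level of the 8 BH3-only genes was 42.0 RPKM with clusterin and 41.7 RPKM in control.

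Downstream of the mitochondria, APAF1 was lower with clusterin and cytochrome c was not. APAF1 (chromosome 12, 98645228 to 98735433) stood at 2.42 RPKM with clusterin and 2.92 RPKM in control, from 578 and 802 reads. Its ratio of 0.831 (0.745 to 0.926) lay below the offset, and in the authors' deposited table its q was 0.00991. That q compares the libraries at their deposited totals and not at the offset. With the test rerun on recovered reads and the median ratio set to 1, APAF1 was not called and CYCS was called higher. CYCS, the somatic cytochrome c gene, stood at 14.99 RPKM with clusterin and 14.4 RPKM in control, a ratio of 1.04 (0.989 to 1.097) that lay above the offset. CYCS has many processed pseudogenes, so its reads may be shared. DIABLO, the IAP antagonist also called SMAC, stood at 11.7 RPKM with clusterin and 12.3 RPKM in control, a ratio of 0.954 (0.873 to 1.04). DIABLO thus sat at the offset.

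Of the 6 caspases, only CASP10 lay apart from the offset, and it was the lowest in level. CASP10, an initiator related to caspase-8, stood at 0.487 RPKM with clusterin and 0.709 RPKM in control, from 103 and 173 reads. Its ratio was 0.686 (0.532 to 0.881), and its q in the authors' deposited table was 0.0254. CASP10 was not called in the rerun with the median ratio set to 1. CASP8, the main initiator at death receptors, stood at 3.87 RPKM with clusterin and 4.07 RPKM in control, a ratio of 0.952 (0.838 to 1.08). The level of CASP8 was 7.95 times that of CASP10 with clusterin and 5.73 times in control. CASP9, the initiator activated by APAF1, stood at 4.17 RPKM with clusterin and 4.12 RPKM in control. CASP4, an inflammatory caspase that senses bacterial lipopolysaccharide, was the highest at 15.4 RPKM with clusterin and 16.4 RPKM in control. CASP2, linked to DNA damage and the p53 response, stood at 3.31 RPKM with clusterin and 3.74 RPKM in control. The upper bound of its ratio, 0.886 (0.785 to 0.999), fell just short of 1 but above the offset. CASP6, an executioner that cleaves lamin A, stood at 2.32 RPKM with clusterin and 2.13 RPKM in control. CASP6 overlaps PLA2G12A on the same strand, and its interval of 0.851 to 1.40 held both 1 and the offset.

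CASP8 and CASP10 lie in a row with CFLAR on the plus strand of chromosome 2. CFLAR spans 201116154 to 201172688, CASP10 spans 201182898 to 201229406, and CASP8 spans 201233443 to 201287711 in the deposited coordinates, which match GRCh38. CFLAR encodes FLIP, a relative of caspase-8 whose protein lacks caspase activity. It stood at 2.09 RPKM with clusterin and 2.15 RPKM in control, from 847 and 1003 reads, a ratio of 0.973 (0.887 to 1.07). The level of CASP8 was 1.85 times that of CFLAR with clusterin and 1.89 times in control. The RPKM of CFLAR rests on a recovered transcript length of 12191 bases, the longest of any member, against 3505 bases for CASP8. A gene whose cells use a shorter transcript than that length is understated on this scale, equally in both libraries.

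The IAPs, which bind caspases or the complexes that activate them, lay below 0 on the log2 scale in 4 of 4 cases, where 70.2% of all measured genes did, although BIRC3 lay above 0 under both rescalings of the libraries. Their summed level was 50.9 RPKM with clusterin and 54.9 RPKM in control, a ratio of 0.928. BIRC5, which encodes survivin, a mitotic protein of dividing cells, was the highest at 27.8 RPKM with clusterin and 30.7 RPKM in control, from 2487 and 3166 reads. Its ratio was 0.905 (0.859 to 0.954). XIAP, the direct inhibitor of caspases, stood at 3.95 RPKM with clusterin and 4.48 RPKM in control, a ratio of 0.882 (0.815 to 0.954). The intervals of both lay below 1, and both just reached the offset of 0.951. In the authors' deposited table, q was 0.00426 for BIRC5 and 0.0184 for XIAP. Neither was called in the rerun with the median ratio set to 1.

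BIRC2 and BIRC3 encode cIAP1 and cIAP2, ubiquitin ligases of TNF receptor signalling, and lie next to each other on the plus strand of chromosome 11. BIRC3 spans 102317373 to 102339403 and BIRC2 spans 102347182 to 102378670. BIRC3, an NF-kB target, stood at 11.3 RPKM in both libraries, from 2670 reads with clusterin and 3086 in control, a ratio of 0.997 (0.946 to 1.05). BIRC2 stood at 7.94 RPKM with clusterin and 8.45 RPKM in control, a ratio of 0.940 (0.868 to 1.02). The intervals of both neighbours held the offset.

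Among the death receptors, the TRAIL receptors TNFRSF10A and TNFRSF10B lay on opposite sides of the offset. TNFRSF10A, also called DR4, stood at 7.66 RPKM with clusterin and 6.72 RPKM in control, from 445 and 450 reads. Its ratio of 1.14 (0.997 to 1.30) lay above the offset, but the interval held 1. The log2 difference of TNFRSF10A was higher than in 94.7% of measured genes. TNFRSF10B, also called DR5 and induced by p53 and by endoplasmic reticulum stress, stood at 14.1 RPKM with clusterin and 15.9 RPKM in control, from 1940 and 2521 reads. Its ratio of 0.887 (0.835 to 0.941) lay below the offset. In the authors' deposited table, q was 0.00179 for TNFRSF10B and 0.20 for TNFRSF10A. With the test rerun on recovered reads and the median ratio set to 1, neither receptor was called. The level of TNFRSF10B was 1.84 times that of TNFRSF10A with clusterin and 2.36 times in control. No replicate was available to test this change in their ratio. TNFRSF10B overlaps RHOBTB2 on the opposite strand, which stood at 5.49 RPKM with clusterin and 6.15 RPKM in control.

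TNFRSF1A, the main receptor for TNF, was the highest of the receptors at 32.5 RPKM with clusterin and 32.7 RPKM in control, a ratio of 0.994 (0.941 to 1.05). FADD, the adaptor shared by FAS and the TRAIL receptors, stood at 23.4 RPKM with clusterin and 22.4 RPKM in control. Its ratio of 1.04 (0.972 to 1.12) lay above the offset. FAS, the receptor for FAS ligand, was the lowest receptor at 1.77 RPKM with clusterin and 1.95 RPKM in control, from 158 and 200 reads, and its interval of 0.734 to 1.13 held the offset. FAS thus stood well under its own adaptor in both libraries. The summed level of the receptors with FADD and CFLAR was 81.6 RPKM with clusterin and 81.9 RPKM in control.

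**Figure D4:**
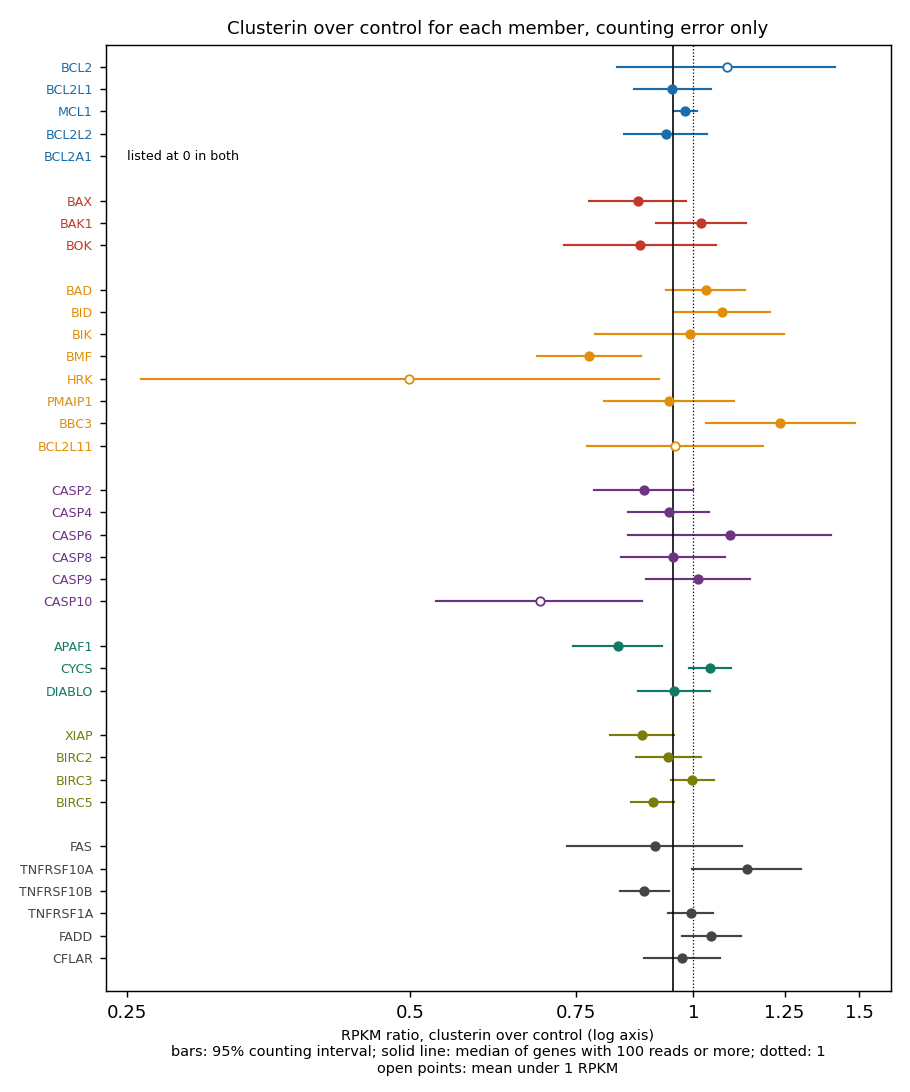
RPKM ratio of clusterin over control for each member on a log axis, with its 95% counting interval (Clopper-Pearson on the reads, counting error only). The solid line is the library offset of 0.951 and the dotted line is 1; filled points are measured members and open points lie under 1 RPKM. Intervals clear of the offset are those of MCL1, BID, BBC3, CYCS, TNFRSF10A and FADD above it and BMF, HRK, CASP10, APAF1 and TNFRSF10B below it.

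Counting intervals lay clear of the library offset for 11 of the 34 members with reads, or 32.4%, against 17.8% of all 20329 genes with reads. Among the 33 members with at least 100 reads 10 did, against 22.3% of all genes with at least 100 reads. Intervals narrow as reads rise, and depth was not matched further. Of the 11, 6 lay above it, where 9.28% of all genes did, and 5 lay below it, where 8.51% did. Above the offset stood the pro-survival gene MCL1 beside pro-death genes such as BBC3, BID and TNFRSF10A, and the 5 below it all act in death. Of the 35 members, only the 5 pro-survival genes, the 4 IAPs and CFLAR act against death. The list is thus mostly pro-death, and these roles give no direction on either side. A q below 0.05 was given in the authors' deposited table to 6 of the 34 members above 0, or 17.6%, against 12.0% of all genes above 0. All 6 were lower with clusterin, where 10.4% of genes above 0 and 14.3% of genes with at least 100 reads were called lower, and none was higher, where 1.63% of genes above 0 were. They were BMF, CASP10, APAF1, XIAP, BIRC5 and TNFRSF10B. When the same kind of test was rerun on the recovered reads with the median ratio set to 1, 2 members were called, against 5.99% of genes with reads. These were BMF, lower as 2.41% of genes were, and CYCS, higher as 3.59% were. These calls compare 2 libraries and not the conditions.

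A wider list of 73 genes of the same pathways held other BCL2 relatives, caspases and their adaptors, mitochondrial death proteins, IAPs, receptor signalling genes and caspase substrates. Of these, 48 were measured, 10 were listed at 0 in both libraries, and 39 of the 48 lay below 0, or 81.2%, against 70.2% of all measured genes. With the control rescaled 26 did, or 54.2%, against 6622 of the 13244 measured genes, and after quantile normalization 31 did, or 64.6%, against 51.2%. None passed 2-fold, and their median log2 difference was -0.08, against -0.06 for all measured genes. A q below 0.05 was given in the authors' deposited table to 12 of the 63 above 0, or 19.0%, against 12.0% of all genes above 0. All 12 were lower with clusterin, where 10.4% of all genes above 0 and 14.3% of genes with at least 100 reads were called lower. Depth was not matched further for this list. Rerun on recovered reads with the median ratio set to 1, the test called 3 of the 61 with reads, or 4.92%, against 5.99% of all genes with reads. These were ENDOG, higher with clusterin, and BCLAF1 and VDAC2, lower. The lowest log2 difference of the 48 was that of CRADD, an adaptor of caspase-2, which stood at 4.01 RPKM with clusterin and 5.22 RPKM in control, a ratio of 0.768 (0.624 to 0.944). It was followed by BCLAF1, a BCL2-associated nuclear factor, at 11.6 and 13.3 RPKM, and by VDAC2, a mitochondrial channel that binds BAK1, at 46.3 and 52.2 RPKM. CYLD, a deubiquitinase of TNF signalling, was at -0.17, DEDD, a death effector domain protein, at -0.16, and BAG3, a co-chaperone, at -0.15. The highest was that of TNFRSF6B, a soluble decoy receptor for FAS ligand, which stood at 1.57 RPKM with clusterin and 1.29 RPKM in control, from 60 and 57 reads. ENDOG, a mitochondrial nuclease, stood at 37.99 RPKM with clusterin and 34.6 RPKM in control, a ratio of 1.099 (1.02 to 1.18). DFFB, the nuclease that cuts DNA between nucleosomes, was at 0.12, AVEN, which inhibits APAF1, at 0.10, NOL3, a caspase-8 inhibitor, at 0.08, and AREL1, a ubiquitin ligase, at 0.03.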

How the data were processed

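RNA of D407 cells, enriched on oligo(dT) beads per the labels' protocols, was sequenced from 1 clusterin-treated and 1 control culture, grouped by their labels. The submitters' processing notes name hg19, Bowtie, TopHat and Cuffdiff, without versions or strand setting. Of the 35 members, 30 started within 2000 bases of their RefSeq position on GRCh38.

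The authors deposited 1 level per gene and library, taken here as RPKM since the headers name no unit, beside their own log2 ratio, p-value and q-value. For 475 of 516 small RNA genes, level times length gave whole reads within 0.02 in both libraries at 1 total each, as RPKM would. The deposited p-value equalled the Audic-Claverie p of those reads within 2% for 467. Reads of 20329 genes were recovered as the transcript length, 50 to 30000 bases, giving whole reads and that p. In simulated data, reads were recovered for 100% of unchanged genes, 92% of 2-fold genes and 67% of 4-fold genes. The 2-fold rule with its pseudocount caught 4% of the simulated 2-fold genes and 88% of the 4-fold genes. A true 2-fold change would thus mostly fall short of that rule.

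No test between conditions was possible. Ratios carry 95% Clopper-Pearson intervals of the clusterin share of reads; PCR copies make these counting error only. All members are named, with the 6 highest and 6 lowest measured genes of the wider list. The members and lists were chosen with earlier results of these data known. Python 3.11.15, NumPy 2.4.6, SciPy 1.17.1, pandas 2.3.3 and Matplotlib 3.10.9 were used. Other pseudocounts, filters, scalings and thresholds were tried.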

Additional observations from a re-analysis of the deposited data

How the results depend on the processing

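No paired analysis was possible because each group has 1 library. Among the members kept by the filter of each setting, none passed 2-fold on the log2(RPKM + pseudocount) scale with a pseudocount of 0.1 or 5 RPKM, without the filter, at a mean of at least 5 RPKM, or under either rescaling, each choice varied alone, and none passed 1.5-fold in place of 2-fold. HRK, which is under 1 RPKM, had a log2 difference of -0.79 at a pseudocount of 0.1 and a ratio of 0.498 with no pseudocount (0.259 to 0.918). With the control rescaled to a median of 0, the median of the members was 0.00039 and that of the wider list -0.016, or -0.031 for the wider list after quantile normalization. That rescaling gave summed ratios of 1.02 for the pro-survival genes, 1.03 for the apoptosome genes, 0.974 for the IAPs and 1.05 for the receptors; quantile normalization gave 1.03, 0.963 and 1.03 for the last 3. At a mean of at least 5 RPKM, 17 members were measured and 11 lay below 0, because fewer genes pass. Rerun with the median ratio set to 1, the authors' kind of test called 2 members in place of 6, and 3 of the wider list in place of 12. Of 46 named genes, 2 of 184 alternative values moved beyond counting error and 13 changed sign, all of them members, the furthest 0.06 from 0. Restricting calls to measured members (5 called), restricting intervals to members with 100 reads (10 off the offset) rerunning the test at the deposited totals (6 called) and the rerun for the wider list were chosen after seeing the data. Depth limits HRK, with 53 reads, and BCL2, with 231, most.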
